A study of Mus musculus with 2 samples.

Results

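Post-mitotic Ltf+ Retnlg-low neutrophils are bone marrow cells that carry the transcripts of specific granules, hold at most a trace of the division genes Mki67 and Top2a, and hold little of Retnlg, a transcript of late neutrophils. They were taken from the raw counts of 2 single-cell libraries by a fixed rule. A barcode had to hold at least 500 detected genes, under 10% mitochondrial UMIs (unique molecular identifiers, counted as molecules) and not both hashtags. Within these, a member had at least 2% of its gene UMIs from Ltf, Camp, Ngp, S100a8, S100a9 and Lcn2 together, at least as many Ltf as Fcnb UMIs, at most 1 UMI of Mki67 and Top2a together, and fewer than 20 Retnlg UMIs. This gave 4405 members among 14068 passing cells of both libraries (31.3%).

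Both libraries were made from mouse bone marrow cells positive for Kit and for CD45.2, the allele of CD45 that marks donor cells in a transplant, 10 weeks after transplantation. RNA and 15 DNA-barcoded antibody tags were counted in the same cells (CITE-seq). One library is the control and the other is labelled Utx-deleted; Utx is the protein of Kdm6a, a demethylase of histone H3 lysine 27 that sits in the complexes of MLL3 and MLL4. The labels give neither the allele, the Cre driver, the number and sex of the animals nor what the 2 hashtags mark. With 1 sample in each group there is no test of the condition, and every difference is one between 2 libraries. The members were chosen by measured values, the UMIs of the genes named above, so the levels of those genes are a description. Intervals are exact 95% intervals (Poisson for UMI sums, Clopper-Pearson for shares of cells) and cover counting error only. Values are given for each hashtag to show the spread inside a library, not as replicates.

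Neutrophils mature in the marrow through a fixed order of granule production. Azurophil (primary) granules with myeloperoxidase and serine proteases come first, specific (secondary) granules with lactoferrin and antimicrobial proteins follow as division ends, and gelatinase (tertiary) granules with matrix metalloproteinases come last, together with receptors for migration. The transcription factor C/EBP epsilon is required for the genes of specific granules, so cells with high Ltf, Camp and Ngp and no sign of division are usually placed at the myelocyte and metamyelocyte steps.

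The 4 markers of the label are genes of the rule, so their levels describe the choice and do not check it. In the control members Ltf was counted in 99.7% of cells, Ngp in 99.6%, Camp in 99.7% and Lcn2 in 98.4%, and in the members of the library labelled Utx-deleted in 99.9%, 99.9%, 99.9% and 99.6%. The same genes were also counted in cells that should lack them, whose source was not tested. These were 167 control and 81 other passing cells taken as megakaryocytic or B-lineage by Pf4 or Cd79a. They were also required to hold a share of the rule's granule genes below its 2% limit. Camp was counted in 96.4% and 92.6% of them, but at 194 and 199 CPM (counts per 1000000 gene UMIs) against 53288 and 56316 CPM in the members. The required low share bounds Camp in them and leaves out granule-rich cells, so contrasts of these cells with members describe the choice and test nothing. Median depth was 8407 and 8849 UMIs in the members and 21738 and 29154 UMIs in those other cells. Ly6g, a surface protein gene of neutrophils that the rule did not use, was counted in 88.5% and 93.5% of members and in 4.19% and 8.64% of those other cells. The label of a Kit-positive sort is weaker at this stage, with Kit RNA at 24.7 and 22.1 CPM and a median of 14 and 9 CD117 tag UMIs per member.

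Members made up 29.1% of passing control cells (2065 of 7098, interval 28.0 to 30.2%) and 33.6% of passing cells in the other library (2340 of 6970, interval 32.5 to 34.7%). By hashtag the shares were 27.9% and 30.0% for the control and 35.1% and 32.04% in the other, so all 4 populations kept the order of the libraries, while the gap was 7.21 points for hashtag 1 and 2.04 points for hashtag 2. The sort for Kit and the number of other cells in each library can set these shares. Beside the members stood 2075 and 1753 cycling cells of the same rule with more than 1 UMI of Mki67 and Top2a (29.2% and 25.2%), and 1025 and 1164 post-mitotic cells with 20 or more Retnlg UMIs (14.4% and 16.7%). Only 3 and 8 cells failed on Fcnb alone.

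The granule share that the rule uses had a median of 29.6% of gene UMIs in control members and 33.9% in the others, far above the limit of 2%. At that limit lay 25 and 10 members with 2 to 3%, which held a median of 968 and 1060 UMIs, and outside it 17 and 8 cells with 1 to 2%. Along Retnlg, the 91 and 106 members with 15 to 19 UMIs had a median granule share of 26.1% and 32.1%. The 85 and 69 cells with 20 to 24 Retnlg UMIs had a similar 24.9% and 32.3%. Members with 1 UMI of Mki67 and Top2a (375 and 362) and cells with 2 (120 and 91) were as close, with 30.5% and 34.6% inside and 30.9% and 34.8% outside. The class is a range cut from counts. Cells on either side of a limit differ by few counts, and the granule share is itself part of the rule. These values therefore cannot show whether the class is a discrete cell type.

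Depth was ample. The members summed to 17342278 and 21250172 gene UMIs, with a median of 2381 and 2360 genes per cell. Barcodes with both hashtags (380 and 699) were dropped as doublets, doublets within a hashtag were not removed, and of 17 barcodes found in both libraries 6 were a member in either. Kdm6a, the targeted gene, stood at 103 CPM in control members (1787 UMIs) and at 105 CPM in the others (2221 UMIs), a log2 ratio of 0.02 (interval -0.07 to 0.11), and at 104, 102, 110 and 98.8 CPM in the 4 hashtag populations. The part of Kdm6a that is deleted and the part that the counts cover are not given here, so its level does not check the label. The reason for the close levels was not tested. Summed erythroid markers reached 460 CPM in control members of hashtag 1 against 9.18 CPM in hashtag 2 and 3.16 and 3.18 CPM in the other library. Monocyte, basophil or mast cell and eosinophil marker lists were also higher in control members, at 217, 388 and 108 CPM summed. In the others they stood at 164, 231 and 50.8 CPM, with Mcpt4 and Tpsb2 at 0 in both. Only 1 basophil or mast cell gene and 1 eosinophil gene (Ear2) held 100 or more UMIs, with log2 ratios of -0.74 and -1.07. Dendritic (232 and 232 CPM), stem (213 and 216 CPM) and macrophage lists (25.3 and 24.5 CPM) had close sums, but single genes differed. Of genes with 100 or more UMIs, 2 of 6 stem genes passed 2-fold upward (Mecom and Angpt1, highest log2 ratio 2.86). So did 2 of 5 dendritic genes (H2-Ab1 and Cd74, highest 1.998) and 1 of 2 macrophage genes (Vcam1, 1.18). Downward, the lowest ratios were -0.79 (stem), -0.26 (dendritic) and -0.73 (macrophage), none past 2-fold. Megakaryocyte (416 and 374 CPM), B-cell (52.2 and 40.0 CPM) and T or NK lists (6.75 and 4.56 CPM) were higher in control members. In these lists just 1, 2 and 1 genes held 100 or more UMIs. Their log2 ratios were -0.15 for the megakaryocyte gene, -0.35 and -0.23 for the B-cell genes and -1.60 for Cd3d. The part of these lists in the ratios below was not tested.

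Of the 4 markers, Ltf, Ngp and Camp all lie on chromosome 9. The promoters of Ltf and Ngp are shown because enough bases lay before their first annotated transcript start. Those of Camp and Lcn2 had too few such bases and are not shown. Both printed windows contain the same motif. The sequences are those of RefSeq on GRCm38.p6, plus strand, 5′ to 3′, cut where the first transcript of the GENCODE M21 annotation begins. Capitals mark a match to the C/EBP half-sites TTGCNNAA or, on the reverse strand, TTNNGCAA. The Ltf run is chr9:111019042-111019270 and ends 21 bases before the RefSeq start, and the Ngp run is chr9:110419558-110419746 and ends 61 bases before it.
Ltf: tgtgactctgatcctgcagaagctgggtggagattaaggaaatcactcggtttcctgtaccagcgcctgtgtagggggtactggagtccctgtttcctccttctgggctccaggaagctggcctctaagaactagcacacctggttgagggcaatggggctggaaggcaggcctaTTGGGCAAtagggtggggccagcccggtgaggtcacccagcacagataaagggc
Ngp: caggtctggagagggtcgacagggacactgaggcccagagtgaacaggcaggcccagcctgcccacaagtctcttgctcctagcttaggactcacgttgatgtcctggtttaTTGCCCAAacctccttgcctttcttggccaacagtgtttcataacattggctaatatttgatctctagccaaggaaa
The match in Ltf began 75 bases before the RefSeq start and the printed match in Ngp 138 bases before it. A C/EBP match was found in the 250 bases before the start of Ltf, Ngp and Lcn2 and not in that of Camp, and it is present in 9.53% of 27025 promoters of the same length. Among the 12 genes with the highest ratios between libraries 8 had a promoter in the table and 1 (Reps2) held a match, and among the 12 lowest 10 had one and 0 held a match. A match is a description of the letters and not a site of binding.

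Granule and calgranulin transcripts dominate these cells. The 4 marker genes differed little between the libraries, while S100a8 was higher in the one labelled Utx-deleted. S100a9, a calcium-binding subunit of calprotectin, stood at 118791 and 117135 CPM in hashtags 1 and 2 of the control library and at 128511 and 129937 CPM in the other, a log2 ratio of 0.13. Its partner S100a8 stood at 70503, 69566, 90094 and 91719 CPM in the same order, a log2 ratio of 0.38 and one of the wider gaps among abundant genes. Camp, the cathelicidin antimicrobial peptide, was at 52937, 53650, 56030 and 56602 CPM (0.08), Ngp, a cystatin-like granule protein, at 31934, 32222, 34946 and 35113 CPM (0.13), Lcn2, which binds bacterial siderophores, at 13966, 13887, 14284 and 14935 CPM (0.07), and Ltf, lactoferrin, at 12967, 12873, 12040 and 12099 CPM (-0.10). In all 6 genes the hashtag populations of one library lay wholly above those of the other. The gap was small apart from that of S100a8, and for Lcn2 it was narrower than that between the hashtags of the library labelled Utx-deleted. Together, the 15 genes of highest mean level held 38.4% and 41.97% of member UMIs. The rest of that set included Chil3, a chitinase-like secreted protein (6927 and 8602 CPM, 0.31), Wfdc21 (3978 and 5461 CPM, 0.46), lysozyme Lyz2 (18436 and 17721 CPM, -0.06), the NADPH oxidase subunit Cybb (3613 and 3477 CPM, -0.06) and Gm42418, a transcript that overlaps ribosomal RNA sequence (9680 and 6795 CPM, -0.51). These genes were part of the rule or of its abundance and are given as levels.

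**Figure D1:**
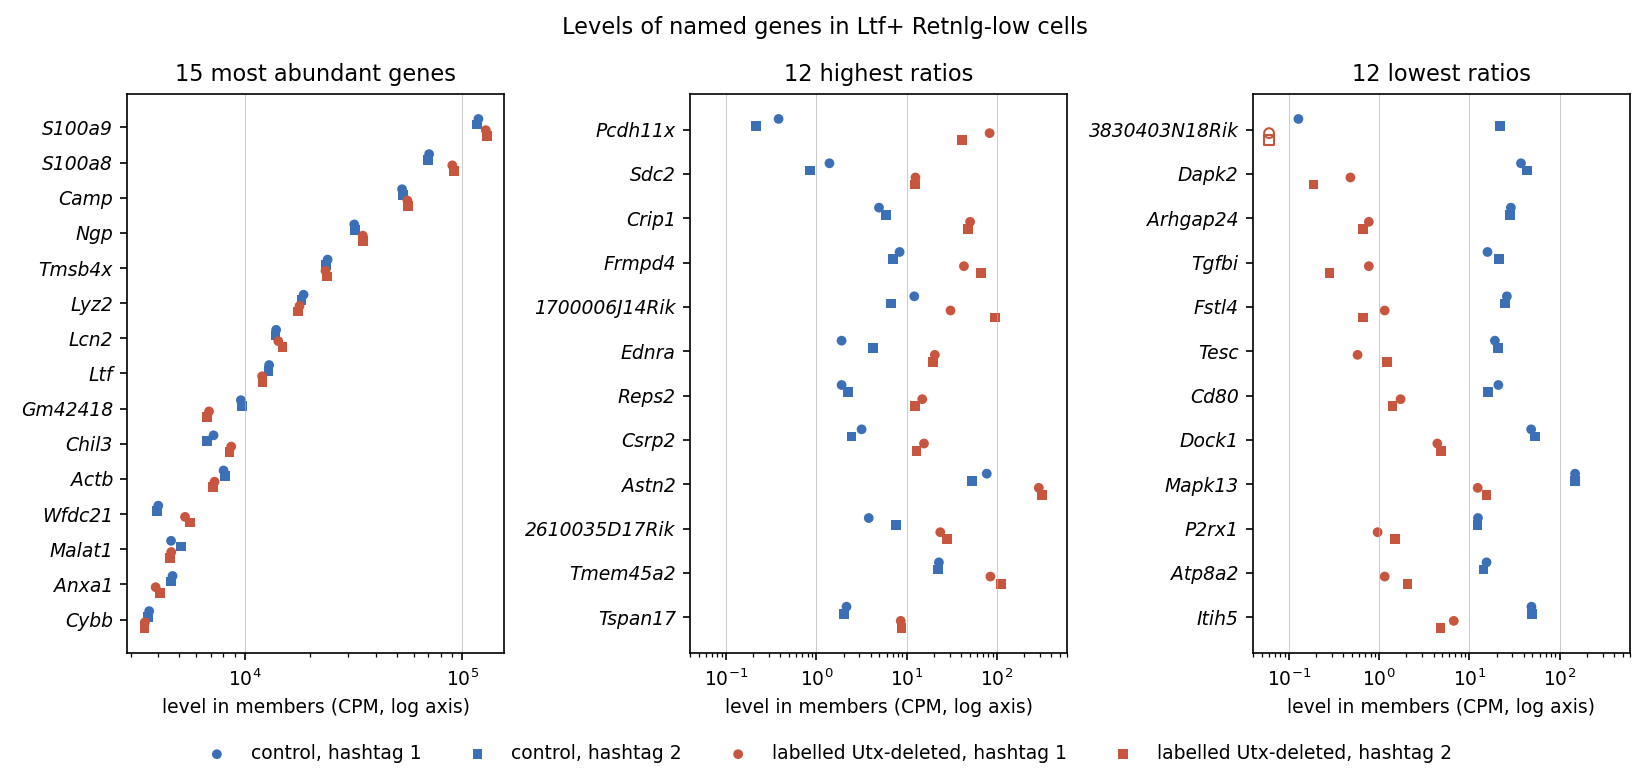
Level in members (CPM, log axis) of the 15 most abundant genes, the 12 highest and the 12 lowest ratios, with 1 point for each library and hashtag; open symbols at the left edge are values of 0. Most abundant genes lie close together (Ltf 12040 to 12967 CPM), with S100a8, Wfdc21 and Gm42418 further apart; the libraries are well separated for the other genes except in control hashtag 1 of 3830403N18Rik (0.13 CPM).

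Over all genes the members of the 2 libraries were alike apart from a small set. Of 8886 genes with 100 or more UMIs, 102 had a ratio past 2-fold upward (1.15%) and 251 downward (2.82%) when the library labelled Utx-deleted was set over the control, together 3.97%, with a median log2 ratio of -0.04. Past 2-fold in the same direction for both hashtags were 61 higher (0.686%) and 196 lower genes (2.21%), together 2.89%, and 3 genes were past 2-fold in opposite directions. Set over hashtag 1 of the same library, hashtag 2 had 55 control genes past 2-fold (0.619%, of which 0.349% higher and 0.27% lower) and 51 in the other (0.574%, of which 0.27% higher and 0.304% lower). Between libraries there were 410 such genes for hashtag 1 (4.61%, of which 1.56% higher and 3.05% lower) and 415 for hashtag 2 (4.67%, of which 1.54% higher and 3.13% lower). Across genes, the hashtag 1 and hashtag 2 ratios correlated at 0.72 (Pearson) and 0.63 (Spearman); genes share depth and cells and are not replicates. The X chromosome held 260 of the tested genes (2.93%), 5 of the 61 higher genes (Pja1, Phka1, Pcdh11x, Reps2 and Frmpd4) and 3 of the 196 lower ones (Cfp, Sept6 and 3830403N18Rik).

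**Figure D2:**
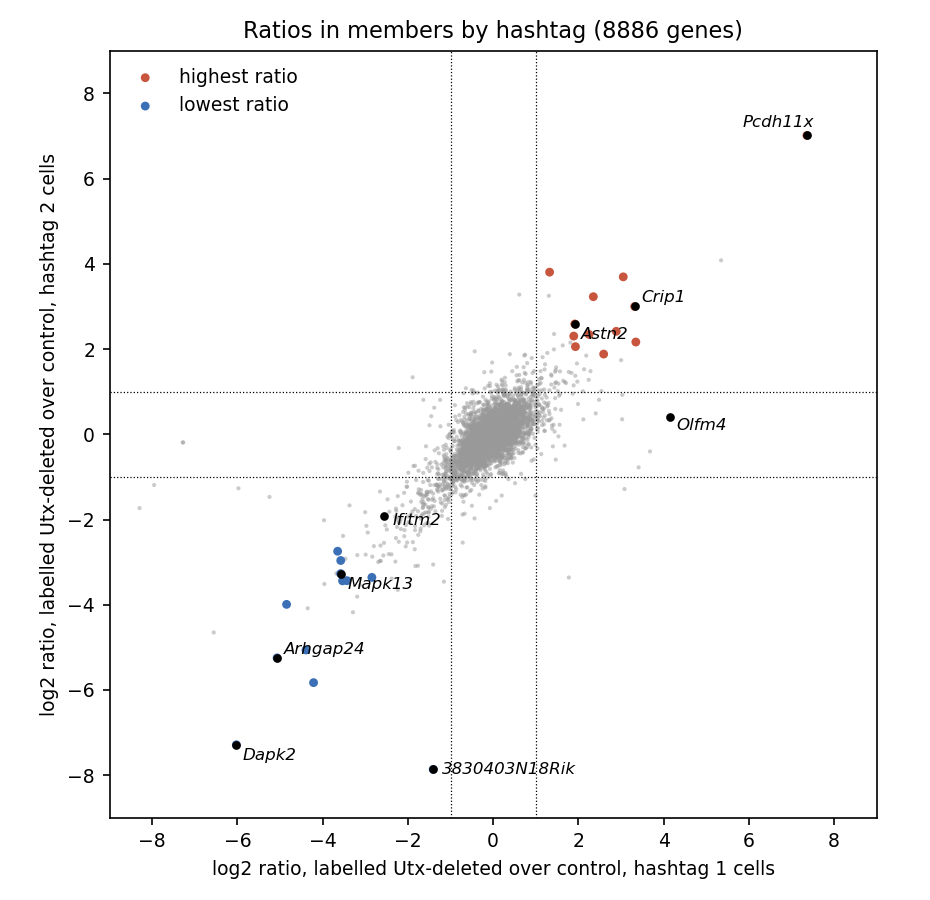
Log2 ratio of the library labelled Utx-deleted over the control library for each of 8886 genes in members, with hashtag 1 cells on the x axis and hashtag 2 cells on the y axis; dotted lines mark 2-fold and coloured or black points are named genes. Most genes lie within the dotted square, Pcdh11x and Dapk2 are far out for both hashtags, and Olfm4 is far out for hashtag 1 only.

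Dapk2, a calmodulin-dependent death-associated kinase (chr9:66158223-66272242, plus strand, GENCODE M21 on GRCm38), was at 37.3 and 43.7 CPM in the control hashtags and at 0.48 and 0.19 CPM in the other library. That is 708 against 7 UMIs, a log2 ratio of -6.76 (interval -8.27 to -5.90), and 24.99% of control members against 0.256% of the others held a UMI. Both control populations were high and both others near 0, with no overlap. Mapk13, the p38 delta kinase (chr17:28769297-28780233, plus strand), was at 149 and 150 CPM against 12.4 and 15.4 CPM (2578 and 295 UMIs, -3.42, interval -3.60 to -3.25). A UMI of it was found in 65.3% of control members and 10.0% of the others, and in 25.3% and 2.31% after thinning every cell to 2000 UMIs, which left out 109 and 47 shallower members. In the Pf4 or Cd79a cells Mapk13 was found in 2.99% and 1.23% and Dapk2 in none of 167 and 81.

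Arhgap24, a GTPase-activating protein, had 495 and 15 UMIs (-5.25), and Dock1, an exchange factor for Rac, 886 and 99 (-3.44). Tgfbi, an extracellular matrix protein induced by TGF-beta, had 327 and 11 UMIs (-5.07), Fstl4 446 and 19 (-4.78), Tesc, a calcium-binding regulator, 345 and 19 (-4.41), and Itih5 856 and 121 (-3.11). Among surface and membrane proteins Cd80, a costimulatory ligand of T cells, had 319 and 34 UMIs (-3.49), P2rx1, an ATP-gated channel, 215 and 26 (-3.29) and Atp8a2, a phospholipid flippase, 258 and 34 (-3.18). In these 9 genes the control hashtags lay at 12.3 to 53.5 CPM and those of the other library at 0.28 to 6.70 CPM. One gene of the set differed also inside the control library: 3830403N18Rik on the X chromosome had 0.13 CPM in hashtag 1 and 21.7 CPM in hashtag 2, and its 204 control UMIs stood against 0 elsewhere, a level at least 83.3-fold lower by a floor of 3 counts over the group. For hashtag 1 alone the comparison is 1 UMI against 0, so its difference rests on hashtag 2.

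Higher genes were fewer and mostly of low level. Pcdh11x, a protocadherin (chrX:120290259-120910619, plus strand), was at 0.38 and 0.21 CPM in the control hashtags and 83.4 and 41.2 CPM in the other library (5 and 1313 UMIs, 7.48, interval 6.52 to 9.37). Only 7.65% of members of that library held a UMI of it, against 0.194% in the control, and 4.94% and 4.79% of the Pf4 or Cd79a cells did (47.8 and 10.7 CPM). Crip1, a LIM-domain protein (chr12:113146316-113153879, plus strand), was at 4.95 and 5.87 CPM against 50.7 and 47.7 CPM (95 and 1041 UMIs, 3.15, interval 2.86 to 3.48), and was counted in 3.97% and 28.6% of members. It is abundant in other cells of these libraries, at 333 and 313 CPM in the Pf4 or Cd79a cells, where it was not higher in the library labelled Utx-deleted. Astn2, an astrotactin known from neurons (chr4:65380803-66404611, minus strand), was the most abundant of the set at 77.6 and 52.8 CPM against 293 and 318 CPM (2.24, interval 2.15 to 2.34), in 11.6% and 44.8% of members and in 1.80% and 4.94% of the Pf4 or Cd79a cells.

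The others were Sdc2, a heparan sulfate proteoglycan (19 and 264 UMIs, 3.43), Frmpd4 (132 and 1171, 2.85), the endothelin receptor Ednra (56 and 426, 2.61), Reps2 (39 and 290, 2.57), Csrp2, a LIM-domain protein (48 and 301, 2.33), Tmem45a2 (398 and 2077, 2.09), Tspan17, a tetraspanin (36 and 185, 2.04), and the non-coding 2610035D17Rik (103 and 550, 2.11) and 1700006J14Rik (159 and 1342, 2.78). The last is annotated as antisense, and the use of strand in the counting is not stated, so its reads and those of its partner cannot be told apart. Of the 12 it differed most between the hashtags of the library labelled Utx-deleted, with 30.7 and 95.4 CPM. Each of the 24 genes kept its direction and stayed past 2-fold in the cycling cells, in the cells with 20 or more Retnlg UMIs and in all 3 Retnlg ranges of the members, so the differences were present on both sides of the members as well. Levels differed by stage in several. Arhgap24 in the control library was at 3.06 CPM in cycling cells, 28.5 CPM in members and 290 CPM at 20 or more Retnlg UMIs, against 1.12, 0.71 and 25.6 CPM in the other library, and Crip1 in the library labelled Utx-deleted went the other way, with 130, 49.0 and 13.02 CPM.

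Olfm4, a specific granule glycoprotein that marks a subset of neutrophils, was the 1 of 19 specific granule genes past 2-fold higher (1.15% over all genes), and its difference lay mainly in 1 hashtag. It was at 115 and 150 CPM in the control hashtags and at 2039 and 198 CPM in hashtags 1 and 2 of the library labelled Utx-deleted. Over all members that is 133 and 1110 CPM (2315 and 23592 UMIs, 3.06, interval 2.99 to 3.12), but for hashtag 2 alone the log2 ratio was 0.39 and for hashtag 1 it was 4.15. The count per cell had few values from 2 to 9 UMIs (7 and 8 members), while 21 and 124 members held 1 UMI. Any UMI was found in 3.51% and 4.45% of control members of hashtags 1 and 2, and in 34.9% and 9.69% in the other library. Members with 10 or more UMIs, a limit chosen after the values were seen, held 97.8% and 99.4% of all Olfm4 UMIs. Such Olfm4-high cells made up 2.23% (interval 1.39 to 3.39%) and 2.99% (2.07 to 4.18%) of control members of hashtags 1 and 2, and 30.1% (27.5 to 32.9%) and 3.23% (2.29 to 4.40%) in the other library. The hashtag 1 population of the library labelled Utx-deleted thus stood apart from the other 3, whose intervals overlap.

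**Figure D3:**
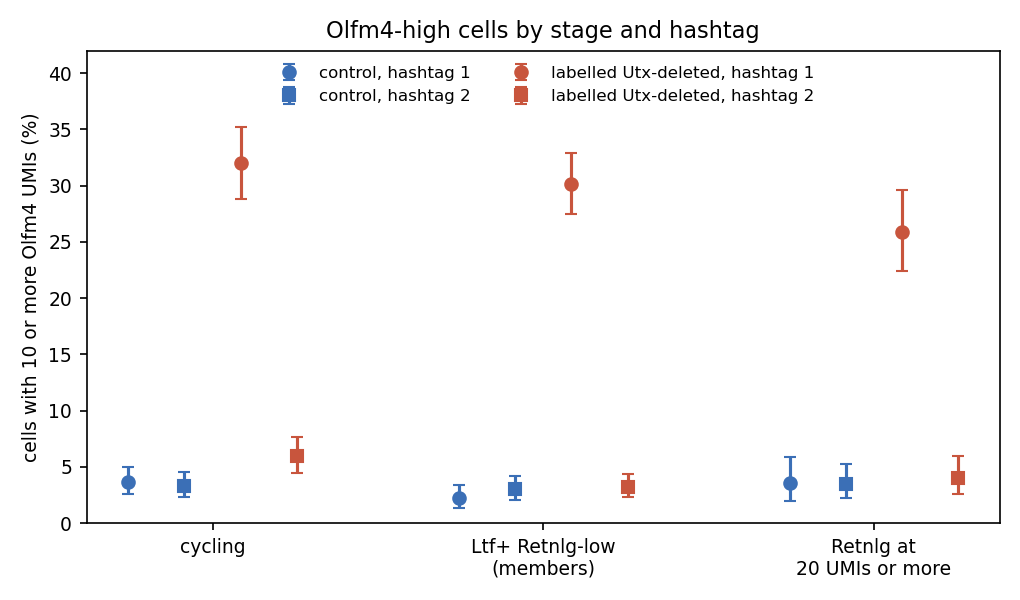
Share of cells with 10 or more Olfm4 UMIs (y axis, percent) in cycling cells, members and cells with 20 or more Retnlg UMIs, for each library and hashtag; bars are exact 95% binomial intervals. Hashtag 1 of the library labelled Utx-deleted lies at 31.98%, 30.1% and 25.9%, and all other points lie at or below 5.94%.

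Hashtag 1 of the library labelled Utx-deleted was also the highest population on both sides of the members. In cycling cells the shares were 3.65%, 3.30%, 31.98% and 5.94%, and at 20 or more Retnlg UMIs 3.54%, 3.51%, 25.9% and 4.04%, in control hashtags 1 and 2 and then hashtags 1 and 2 of the other library. Within hashtag 1 of the library labelled Utx-deleted, 344 Olfm4-high and 798 other members had Ltf at 12050 and 12035 CPM, Camp at 55598 and 56228 CPM, Ngp at 35298 and 34783 CPM, Retnlg at 343 and 355 CPM and Mmp8 at 453 and 458 CPM, and their median depth was 9195 and 8745.5 UMIs. Astn2 (276 and 301 CPM) and Crip1 (49.2 and 51.3 CPM) were as close. Pcdh11x was further apart, with 158 CPM (interval 145 to 173) in Olfm4-high members and 48.8 CPM (43.8 to 54.2) in the others, and a UMI of it in 18.3% and 7.14% of cells. In hashtag 2 of that library the 38 Olfm4-high members had 78.5 CPM, of which 65.5% came from 1 cell, and the other 1139 members had 39.9 CPM. The other populations, with 21 to 38 Olfm4-high members, were less even: in control hashtag 2 Astn2 was at 142 CPM (interval 103 to 190) in Olfm4-high members and 49.8 CPM (45.3 to 54.6) in the others, with 38.6% of the former from 1 cell. Without the Olfm4-high cells 92 of the 102 higher and 231 of the 251 lower genes remained past 2-fold.

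Genes of the other granules and of the steps before and after were described by lists. The specific granule list had a median log2 ratio of 0.07 over 19 genes, against -0.03 over all 11455 genes with 20 or more UMIs, and 1 of 19 genes (Olfm4) past 2-fold higher and 0 lower, against 1.15% and 2.82% over all genes. Below 2-fold, Orm1, an acute-phase lipocalin, was higher (220 and 394 CPM, 0.84), and Mmp8, neutrophil collagenase (758 and 489 CPM, -0.63), and Slpi, a protease inhibitor (-0.57), were lower. Azurophil granule genes had a median of -0.20 (-0.10 and -0.29 for hashtags 1 and 2, and 0.011 over genes with 500 or more UMIs). Of 13 tested, 8 were below 0, against 5035 of 8886 over all genes, and none was past 2-fold, against 3.97%. Both counts are near the shares over all genes. Genes of the main proteins of these granules were higher over all members, Mpo at 61.8 and 85.8 CPM (0.47), Elane at 76.7 and 121 CPM (0.66), Prtn3 (0.28) and Ctsg (0.28), and the stage genes Ms4a3 (-0.55) and Fcnb (-0.44, a rule gene) lower. Of these, Elane, Prtn3 and Ctsg were higher mainly in hashtag 2: Elane had 93.9 and 148 CPM in hashtags 1 and 2 of the library labelled Utx-deleted, and the hashtag 1 ratio was 0.08 for Elane, 0.02 for Ctsg and -0.22 for Prtn3. The gap was widest in members with 5 to 19 Retnlg UMIs, where Elane was at 73.6 and 206 CPM and Prtn3 at 76.7 and 156 CPM, against 72.6 and 82.8 CPM and 82.8 and 78.6 CPM at 0 Retnlg UMIs.

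Gelatinase granule and late-neutrophil genes had a median of -0.54 over 28 genes, and 18 of 23 tested genes were below 0, as were 5035 of all 8886 tested genes. Their summed level went the other way, with 8720 and 9420 CPM, of which Wfdc21 alone gave 3978 and 5461 CPM. Clec4e (-1.26) and Clec4d (-1.04), C-type lectin receptors, and Dhrs9, a retinol dehydrogenase (-1.53), were past 2-fold lower, 3 of 23 against the 2.82% over all genes. Stfa1, a stefin with near-identical relatives among which reads may be split, was higher (1.67), mostly in hashtag 1 of the library labelled Utx-deleted (22.8 CPM against 4.19 to 7.11 CPM in the other populations). Il1r2, the decoy receptor of interleukin 1 (90.9 and 50.4 CPM, -0.85), Cxcr2, the receptor for neutrophil exit from marrow (109 and 63.7 CPM, -0.78), Mmp25 (-0.65), Ccr1 (-0.64) and Padi4, which citrullinates histones (-0.56), were lower, whereas Mmp9, gelatinase B (1084 and 1079 CPM, -0.01), and Csf3r, the receptor of the growth factor G-CSF (-0.02), were equal, and Fpr2, a formyl peptide receptor, was higher (231 and 315 CPM, 0.45). Retnlg, used in the rule, was itself at 409 and 343 CPM. The Cxcr2 ratio differed by stage, with -1.73 in cycling cells, -0.78 in members and 0.08 at 20 or more Retnlg UMIs.

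Other S100 genes differed among themselves. S100a6 (2197 and 1291 CPM, -0.77) and S100a10 (91 and 54 UMIs, -1.04) were lower and S100a11 (0.03) was equal. The 8 genes of the NADPH oxidase, which makes superoxide, had ratios slightly below 0 (5035 of 8886 over all genes). They ran from -0.27 for Rac2 to -0.06 for Cybb, with a median of -0.14. None was past 2-fold, against 3.97% over all genes. With TMM scaling, which centres on the bulk of genes, the median was -0.08 and Cybb was no longer below 0. Among 19 adhesion and migration genes Itgal, the alpha chain of LFA-1, was the 1 past 2-fold, against 2.82% lower over all genes: 136 and 140 CPM in the control hashtags against 44.3 and 44.97 CPM in the other library (2403 and 950 UMIs, -1.63, interval -1.74 to -1.52). Its partner chain Itgb2 (-0.01) and Itgam, the alpha chain of Mac-1 (-0.15), stood close in both libraries, and Itgb1 was higher (0.53).

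Cytokine receptors had a median of -0.26, with 17 of 18 below 0, against 5035 of 8886 over all genes. Csf2rb2, a beta chain used for interleukin 3 whose sequence is close to that of Csf2rb, had 126 and 15 UMIs (-3.28) and Tgfbr2 243 and 137 (-1.12); Csf2rb stood at 71.0 and 57.0 CPM (-0.32). Il6ra (-0.75), Il4ra (-0.73) and Il17ra (-0.63) were lower without passing 2-fold. Of 18 pattern recognition and Fc receptor genes Fcgr4 alone was past 2-fold (546 and 304 UMIs, -1.14), again against 2.82% lower over all genes. For this list and the adhesion list, 1 gene is near that background.

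Interferon-stimulated genes had a median of -0.47 over 24 genes and 5 of 20 past 2-fold lower, with 0 higher, against 2.82% and 1.15% over all genes. The most abundant was Ifitm6 (3106 and 2912 CPM against 1565 and 1764 CPM, -0.85), and the lowest ratio was that of Ifitm2, a membrane protein that restricts virus entry, at 483 and 501 CPM against 82.4 and 132 CPM (8542 and 2273 UMIs, -2.20, interval -2.27 to -2.14). A UMI of Ifitm2 was found in 88.4% and 38.5% of members. Ifitm3 was lower to a smaller degree (499 and 342 CPM, -0.54); members of this family share sequence. Oasl2 (-1.30), Rsad2 (-1.18), Rtp4 (-2.19) and Ifitm1 (-1.55) rest on 80 to 132 control UMIs each. The hashtags differed here, with list medians of -0.24 for hashtag 1 and -0.74 for hashtag 2.

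Among 12 immediate early genes, with a list median of -0.31, Fos (-1.15), Jun (-1.14) and Dusp1 (-2.03) were past 2-fold lower, against 2.82% over all genes, and the other 9 did not pass. These genes also differed inside the control library, with Jun at 8.25 and 23.8 CPM and Zfp36 at 119 and 186 CPM in hashtags 1 and 2, against 7.85 and 7.11 and against 91.4 and 85.7 CPM in the other. Myeloid transcription factors had none of 20 past 2-fold, against 3.97% over all genes, and a median of -0.15. Cebpe, the factor of specific granules (386 and 442 CPM, 0.20), Spi1, which encodes PU.1 (454 and 433 CPM, -0.07), and Cebpd (0.06) stood close, Gfi1, a repressor needed for neutrophil fate, was higher (21.9 and 35.8 CPM, 0.71) and Rara, a retinoic acid receptor, lower (-0.92). The 14 genes of the MLL and UTX complexes had a median of 0.02. Among them Kmt2c was at -0.08, Kmt2d at 0.02 and the other H3 lysine 27 demethylase gene Kdm6b at -0.36. None of these 14 and none of 10 Polycomb genes was past 2-fold, against 3.97% over all genes. For lists this short, such counts are near that share. Class II genes of antigen presentation are not neutrophil genes. Of 5 tested, H2-Ab1 (1.64) and Cd74 (1.998) were past 2-fold higher, against 1.15% over all genes, and 2 were below 0. The list median was 2.12 for hashtag 1 and 0.018 for hashtag 2. In hashtag 1 members under 10 Olfm4 UMIs of the library labelled Utx-deleted, 94.0% of the Cd74 UMIs came from 1 cell.

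At the cell surface the tags of myeloid cells dominated. Gr1, an antibody tag for the Ly6G and Ly6C proteins of granulocytes, had a median of 932 and 959.5 UMIs per member in the control hashtags and of 1363 and 1054 UMIs in the other library, the only one of the 13 tags other than hashtags that was higher. As a share of these 13 tags it was 5871 and 6846 of 10000 UMIs (0.22), and RNA of Ly6g went the same way (748 and 973 CPM, 0.38) and that of Ly6c2 the other (880 and 726 CPM, -0.28). CD11b, the product of Itgam, was nearly equal (medians 231 and 218 UMIs, -0.02), and its sign changed with the scale and between hashtags. CD48, a surface ligand of the SLAM family, was lower: 80.5 and 75 UMIs per member in the control hashtags and 33 and 32 in the other library, a log2 ratio of -1.03 on the share scale (interval -1.04 to -1.02). Cd48 RNA, at 86 and 94 UMIs, was too sparse to compare (-0.17, interval -0.60 to 0.27).

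CD16_32, which reports the Fc gamma receptors III and II, had medians of 435 and 404 UMIs against 250.5 and 283 (-0.53), with Fcgr3 RNA at -0.25 and Fcgr2b RNA at -0.34. The tags of stem, progenitor and lymphoid cells were low in members, with control and other medians of 14 and 9 UMIs for CD117, 6 and 2 for Sca1, 7 and 4 for B220, 4 and 2 for CD127, 3 and 2 for CD34, 2 and 0 for CD150 and 1 and 0 for CD201, CD41 and CD135. All 9 were lower in the library labelled Utx-deleted, whose hashtag tags were lower as well (552 and 430 UMIs for hashtag 1, 1284.5 and 1015 for hashtag 2), and total tag UMIs per member were close (1816 and 1807.5). RNA of Procr, the gene of CD201, was at 0 in both libraries, and Ly6a, Slamf1 and Il7r were at 0 to 7 UMIs. On the centred log-ratio scale only 7 of the 13 tags were lower and 6 higher, so the general shift of low tags depends on the scale, whereas CD48 (-0.43 on that scale), Sca1 (-0.24), CD150 (-0.22), CD127 (-0.18) and B220 (-0.12) were lower on each scale run. CD16_32 was at -0.0083 on that scale, -0.12 in hashtag 1 and 0.078 in hashtag 2, and CD117 at -0.023. Sums of the low tags also rest on few cells: 20.1% of CD201, 22.9% of CD41 and 24.8% of CD127 UMIs in members of the library labelled Utx-deleted came from 1 barcode.

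**Figure D4:**
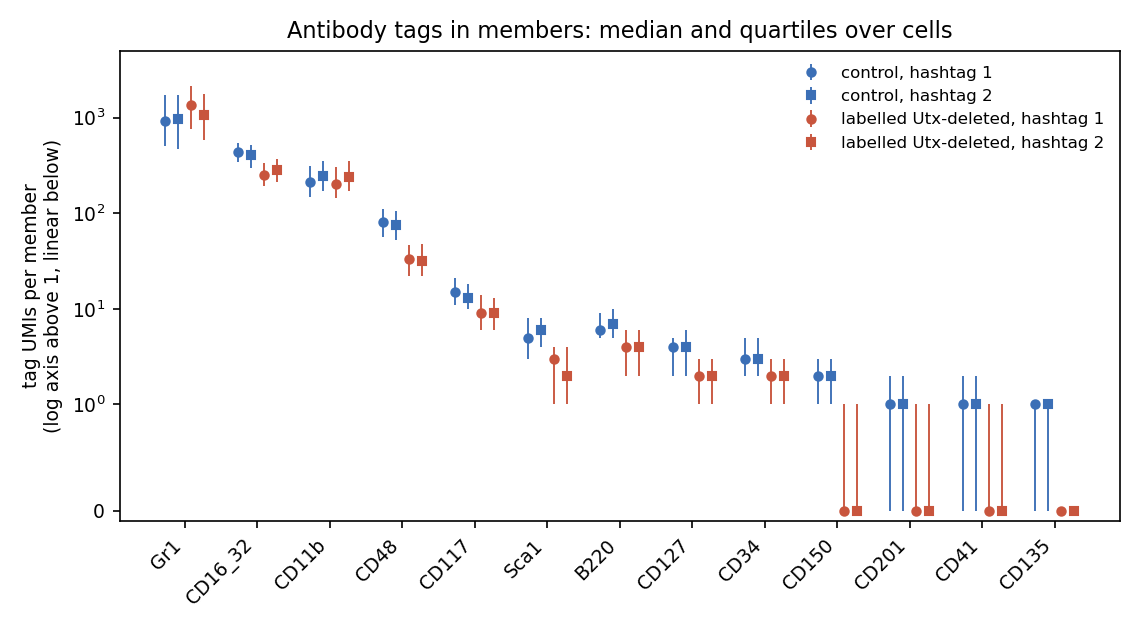
Antibody tag UMIs per member (y axis, log scale above 1) for 13 tags, with the median as a point and the quartiles over cells as a line, for each library and hashtag. Gr1 is higher and CD48 and CD16_32 are lower in the library labelled Utx-deleted for both hashtags, and CD11b overlaps.

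Stage set the order of the Gr1 tag more than the library did. Its median went from 504 UMIs in cycling control cells to 933 in members and 2958 at 20 or more Retnlg UMIs, and from 884 to 1180 and 2581.5 in the library labelled Utx-deleted, so the gap between libraries was widest in cycling cells (0.67 on the share scale), smaller in members (0.22) and 0.05 in the last, where the median was lower. Ly6g RNA had log2 ratios of 0.81, 0.38 and 0.18 along the same order. CD48 was lower in all 3 (-0.86, -1.03 and -0.81).

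Members varied along Retnlg, which was split into 0, 1 to 4 and 5 to 19 UMIs. With 0 Retnlg UMIs were 29.8% of control members (interval 27.8 to 31.8%) and 35.7% of the others (33.7 to 37.7%), with 1 to 4 UMIs 43.9% and 41.1%, and with 5 to 19 UMIs 26.3% and 23.2%. After thinning to 2000 UMIs the shares without Retnlg were 59.9% and 64.1%. Between the outer ranges, 59 of 6045 control genes were past 2-fold higher with Retnlg (0.976%) and 41 lower (0.678%), together 1.65%, and in the other library 72 higher (1.19%) and 38 lower (0.629%), together 1.82%. In both libraries 45 of 6045 genes were past 2-fold higher (0.744%) and 16 past 2-fold lower (0.265%); median depth was 8623 and 7473 UMIs in these control ranges and 9058 and 8274 UMIs in the others.

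Genes of the gelatinase step were among those that were higher with Retnlg. Mmp8 went from 266 to 451 and 1921 CPM in the control library and from 169 to 338 and 1283 CPM in the other, a log2 ratio of the outer ranges of 2.85 and 2.93. Thbs1, the adhesive glycoprotein thrombospondin 1, went from 24.1 to 189 CPM and from 55.3 to 309 CPM, Clec4e from 25.7 to 86.6 CPM and from 8.94 to 39.2 CPM, the formyl peptide receptor Fpr1 from 20.5 to 73.9 CPM and from 21.0 to 82.1 CPM, and Cd55, an inhibitor of complement, from 33.2 to 98.8 CPM and from 6.84 to 31.6 CPM. Ankrd33b, Gpr27 and Gabbr1, a subunit of the GABA B receptor, completed the 8 largest. From the gene lists Mmp9 (1.27 and 1.56), Dhrs9 (1.76 and 1.74), Cxcr2 (1.01 and 1.97), Ccr1 (1.13 and 1.63), Adam8 (1.08 and 1.34), Tlr2 (1.17 and 1.29) and Tlr13 (1.52 and 1.76) were past 2-fold in both. Lower with Retnlg were Fcnb, the ficolin of earlier stages (461 to 149 CPM and 338 to 117 CPM), Ccnb2, a mitotic cyclin (25.1 to 4.47 CPM and 25.6 to 2.11 CPM), the insulin-like growth factor binding protein Igfbp4, Slc43a3, Hist1h2bc, Lrrc4, Lair1, an inhibitory collagen receptor, and Cdca7l. The Gr1 tag went from a median of 675 to 1725 UMIs and from 927 to 1820 UMIs. These genes were picked for their size, and Retnlg itself defines the ranges, so they describe an order and carry no test.

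**Figure D5:**
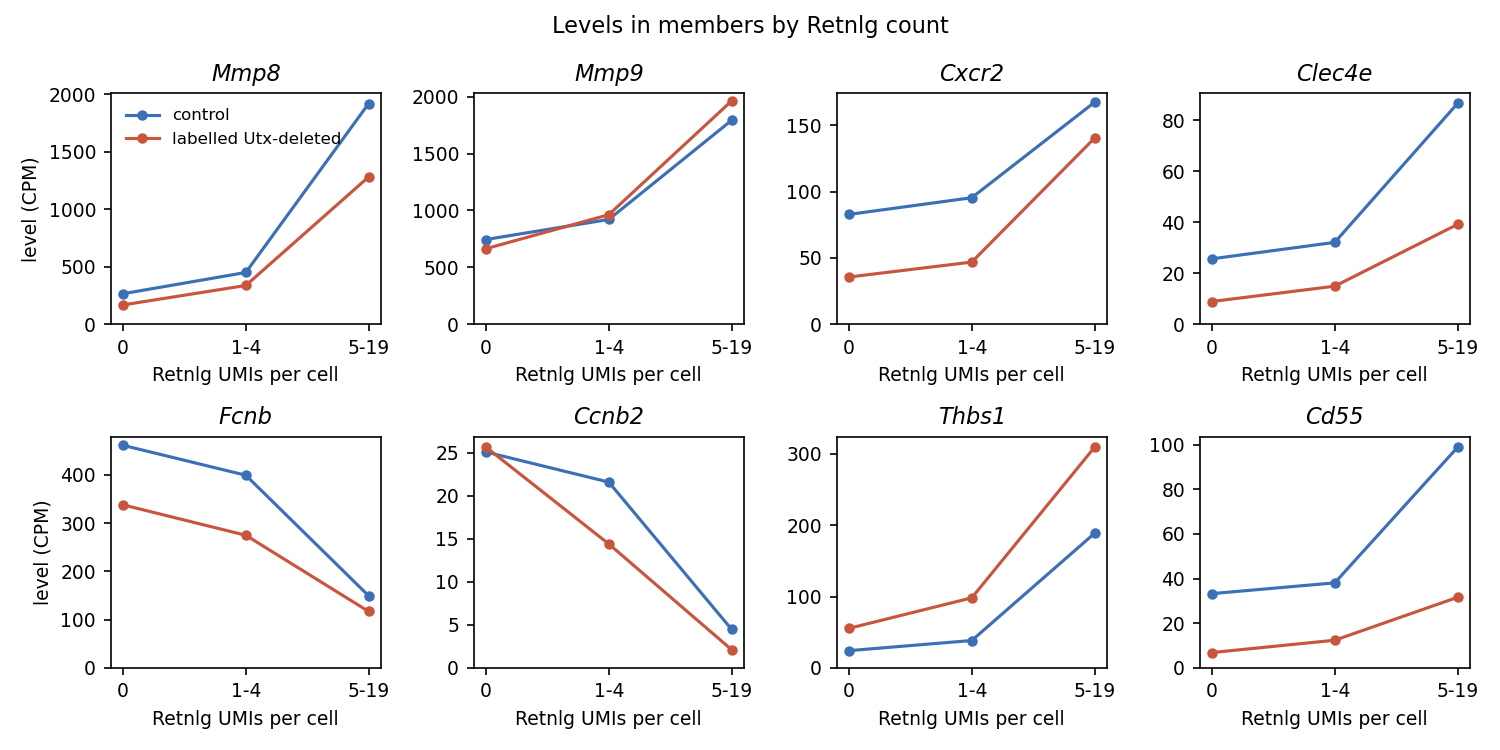
Level (CPM, axis from 0) of 8 genes in members with 0, 1 to 4 and 5 to 19 Retnlg UMIs, for both libraries; each point is a sum over cells of 1 library. Mmp8, Mmp9, Cxcr2, Clec4e, Thbs1 and Cd55 are highest at 5 to 19 UMIs in both libraries and Fcnb and Ccnb2 lowest, and Cd55 and Clec4e are lower in the library labelled Utx-deleted in each range.

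The offset between libraries differed by gene. Within a range, Clec4e, Cd55 and Cxcr2 were lower and Thbs1 higher in the library labelled Utx-deleted throughout. Mmp9 was lower at 0 UMIs (745 and 664 CPM) and higher at 5 to 19 UMIs (1792 and 1963 CPM). Giving the 3 ranges the same weight in both libraries left 98 of the 102 higher and 239 of the 251 lower genes past 2-fold.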

How the data were processed

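The deposited matrices hold raw UMI counts per gene or antibody tag and barcode, not normalized, and were made with Cell Ranger 7.1.0 on mm10 per the submitters' processing notes; whether introns were counted, the annotation and the rule for calling cells are not given in the sources used here. Per the file headers the features were 32285 genes and 15 tags. The members and lists were chosen with earlier results of these data known.

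From these counts, cells were filtered and chosen by the rule in the report. UMIs were summed over members of each library (CPM), and log2 ratios used 1 UMI added to each sum, so ratios of very low genes are understated. The counts past 2-fold cover genes with 100 or more UMIs summed over the libraries, and list medians those with 20 or more. A hashtag was called at 100 or more UMIs and over 5 times the other; 23 and 21 members had neither and enter the totals only. Tag shares are per 10000 UMIs of the 13 tags other than hashtags. Genes named for size had at least 200 UMIs, were past 2-fold in the same direction for both hashtags and drew no more than 10% of the UMIs of the higher library from 1 cell (the 12 highest and 12 lowest); others are the 15 most abundant, rule genes, listed genes, Kdm6a, the genes of the tags, and the 8 genes per direction between Retnlg ranges. The genes compared in Olfm4-high cells were picked after their values were seen. Coordinates and gene types are from GENCODE M21 on GRCm38, which held 99.8% of the gene IDs. Tools were Python 3.11.15, numpy 2.4.6, scipy 1.17.1, pandas 2.3.3 and, for TMM (trimmed mean of M values) scaling only, edgeR 4.0.16 in R 4.3.3. Ratios and call rules were tested on simulated Poisson sums without spread between cells or libraries. That test does not cover genes whose UMIs are clumped in few cells. Results for some listed genes are not reported here.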

Additional observations from a re-analysis of the deposited data

How the results depend on the processing

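No paired analysis was possible because each group is 1 library and no test was made. The counts of 102 higher and 251 lower genes became 126 and 230 with TMM scaling, which moved the median ratio from -0.04 to 0.02, 129 and 224 with a total without the 50 most abundant genes, 335 and 518 at a minimum of 20 UMIs, 25 and 82 at 500, 1214 and 2257 with no minimum above 1, 349 and 596 at 1.5-fold, and 32 and 122 after thinning to 2000 UMIs per cell. Higher genes made up 28.9% of these calls, 39.3% at a minimum of 20 UMIs. Hashtag 1 alone gave 71 and 159 of 7561 genes and hashtag 2 alone 72 and 197 of 7725, with the minimum of 100 UMIs applied within that hashtag; the larger counts in the report keep all 8886 genes. The cause of these moves, other than the number of genes and UMIs that enter, was not tested. The share of members differed by 4.48 points, by 7.21 in hashtag 1 and 2.04 in hashtag 2, and by 3.40 to 5.88 under the other settings. Of 13 tags 12 were lower in members, 7 with centred log-ratios; in cycling cells 12 and 6, and at 20 or more Retnlg UMIs 10 and 6, or 6 with hashtag 2 alone. With centred log-ratios the CD135 tag turned from -1.08 to 0.11, CD201 from -0.58 to 0.052, CD41 from -0.49 to 0.097, CD34 from -0.40 to 0.037 and CD11b from -0.02 to 0.35. Each of the 24 genes named for size stayed past 2-fold in all 13 settings. Their choice fixed this for the 2 settings of 1 hashtag (for 3830403N18Rik in hashtag 1, 1 UMI against 0). Settings that changed only the minimum of UMIs or the fold limit left the ratio of each gene as it was, so they could not move it. Under the same limit, Olfm4 stayed past 2-fold in 12 (0.39 for hashtag 2) and the Kdm6a ratio ran from -0.05 to 0.10. List medians below 0 numbered 14 to 18 of 20 against 17. Settings added after the data were seen left out Olfm4-high members (99 and 237) and members under a 10% granule share (101 and 257). Depth limits genes near the minimum of 100 UMIs, whose counting intervals are wide.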

Other observations

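Glycolysis genes were left out of the comparisons above. In the library labelled Utx-deleted 16 of 18 were below 0, against 5035 of 8886 over all genes. Their median log2 ratio was -0.24, and none was past 2-fold, against 3.97% over all genes. Pfkp at -0.65, Pfkl at -0.56 and Pgk1 at -0.50 were lowest, while Aldoa (0.10) and the glucose transporter Slc2a1 (0.18) were above 0. Residual genes of the S phase had a median of -0.28 and those of the G2 and M phases -0.30. Past 2-fold were 0 of 13 and 0 of 12, against 3.97% over all genes, so these counts are near that share. In these cells, chosen for low Mki67 and Top2a, the S phase genes summed to 131 and 104 CPM. The G2 and M genes summed to 109 and 90.3 CPM. Lipid genes had a median of -0.12, with the lipase gene Pnpla2 (0.53) highest of 13 genes with 100 or more UMIs. Emb, an adhesion glycoprotein outside the lists and named after its values were seen, was at 136 and 26.4 CPM (-2.36, interval -2.50 to -2.23) and was counted in 55.7% and 15.1% of members.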
